A study of Mus musculus with 4 samples.

Results

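The Robo2 Tex15 Plac8 stroma of the neonatal mouse uterus was defined by a rule on single-cell RNA counts. Cells needed 500 or more detected genes and no more than 15% of their UMIs (unique molecular identifiers, 1 per captured RNA molecule) from mitochondrial genes. They also needed at least 4 of the 7 markers Robo2, Tex15, Plac8, Col6a4, Cnr1, Rxfp1 and Prdm1, and 0 UMIs of Myh11, Epcam, Pecam1 and Upk3b, which mark smooth muscle, epithelium, endothelium and mesothelium. The rule took 2052 cells, 1055 from uterus library 1 and 997 from uterus library 2. They are 24.0% of the 8566 uterine cells that passed both filters and 9.62% of the 21326 filtered cells of the series. The measured values of the 7 markers chose these cells, so marker levels are given as a description, without a test.

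Oviduct and uterus were taken from untreated wild type CD1 mice on postnatal day 3, and each organ gave 2 of the 4 libraries. The 2 replicates were pools of 3 and of 4 neonates, and both organs came from the same animals. Animals cannot be told apart within a pool. Total depth ran from 61117726 to 114419939 UMIs per library. The labels describe the samples as mesenchymal and epithelial cells, and no treated or mutant group exists.

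Members were compared with 3 sets of cells. Other uterine stroma (396 and 442 cells in libraries 1 and 2) passed the same filters, had at least 1 UMI of Pdgfra, 0 UMIs of Ptprc and of the 4 excluded genes, and at most 1 of the 7 markers. Lum Tcf21 Penk stroma (259 and 256 cells) is the subset of it with at least 2 of Lum, Tcf21 and Penk detected. The same marker rule was also applied to the oviduct, where 158 and 83 cells passed. UMIs were summed per library and group, and each level below is a count per 1000000 UMIs of such a sum (CPM). Values given in pairs are libraries 1 and 2 in that order.

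Uterine stroma is the mesenchyme around the uterine epithelium. It forms from the mesenchyme of the embryonic Müllerian duct, and after birth this tissue separates into endometrial stroma and the muscle of the myometrium, while stromal signals direct growth and differentiation of the epithelium. The 7 markers encode proteins of several kinds. Robo2 is a receptor for secreted Slit proteins, which steer migrating cells and axons. Tex15 is best known from male germ cells, where it acts in meiosis and in silencing of transposons. Plac8 encodes a small cysteine-rich protein, and Col6a4 a chain of collagen VI. Cnr1 is the cannabinoid receptor CB1, Rxfp1 the receptor for relaxin, and Prdm1 (Blimp1) a transcriptional repressor.

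In the RefSeq annotation of GRCm38.p6, the assembly also called mm10, the 7 marker genes lie on 7 chromosomes. Robo2 spans chr16:73891976-75447443, Tex15 chr8:33516689-33592503, Plac8 chr5:100551589-100572253 and Col6a4 chr9:105990318-106096828. Cnr1 spans chr4:33923171-33948831, Rxfp1 chr3:79641600-79737951 and Prdm1 chr10:44437174-44528558. RefSeq promoter windows were found for 5 of the 7, namely Robo2, Plac8, Col6a4, Cnr1 and Prdm1. Of these windows, those of Robo2 and Plac8 had a stretch just outside the annotated gene that overlaps no annotated exon, and these 2 stretches are shown. Both genes are on the minus strand, the stretches cover chr16:75447444-75447543 and chr5:100572254-100572403, and capitals mark CCAAT.
Robo2: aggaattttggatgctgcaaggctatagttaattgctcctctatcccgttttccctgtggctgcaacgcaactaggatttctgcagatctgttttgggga
Plac8: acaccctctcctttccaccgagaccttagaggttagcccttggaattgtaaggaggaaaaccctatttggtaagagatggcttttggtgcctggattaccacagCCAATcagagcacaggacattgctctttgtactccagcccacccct
The windows of Cnr1 and Prdm1 have 0 bases outside the annotated gene and so lie within it. Over the 250 bases before the start, on both strands, CCAAT was found in the windows of 3 of the 5 genes (Plac8, Col6a4 and Prdm1), and it is in 33.8% of all 32851 windows of that length. GGGCGG was found in 2 (Cnr1 and Col6a4), against 32.7% of all windows. The E-box CAGATG was in none of the 5 windows and in 14.4% of all. The GATA-type motif AGATAA was likewise in none, against 9.99%. The TATA-type motif TATAAA was in none either, against 12.4%. In the Col6a4 window, which holds both CCAAT and GGGCGG, the 2 did not overlap.

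Members made up 26.0% of the filtered cells of uterus library 1 (1055 of 4058; 95% exact Clopper-Pearson interval 24.7% to 27.4%) and 22.1% of library 2 (997 of 4508; 20.9% to 23.4%). These intervals cover counting error only, and the 2 libraries differed by more than that. Among uterine cells with Pdgfra, without Ptprc and without the 4 excluded genes, 53.2% and 50.1% passed the marker rule. In the oviduct libraries the rule took 2.28% (158 of 6920; 1.94% to 2.66%) and 1.42% (83 of 5840; 1.13% to 1.76%) of the filtered cells. No test was made of this difference, because the markers had been chosen for the uterus.

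At the depth as sequenced, the number of markers per cell had 2 maxima in the uterus and 1 in the oviduct, but no second maximum was seen at equal depth. In uterus library 1, 503 cells had none of the 7 markers, 275 had 3, 312 had 4, 371 had 5, 265 had 6 and 107 had all 7. Library 2 had 554, 300, 310, 320, 262 and 105 cells in the same classes. In the oviduct libraries the counts fell at every step, from 1684 and 1475 cells without a marker to 28 and 17 cells with 5. Detection rose with depth, since uterine cells with no marker had a median of 4787 and 3967.5 UMIs and those with 4 markers 13692.5 and 15096. With every cell thinned to 5000 UMIs and shallower cells left out, 462, 321 and 180 cells of uterus library 1 had 3, 4 and 5 markers, and 498, 286 and 112 of library 2, so the counts fell at each of these steps. At this depth the rule took 16.0% and 11.6% of the uterine cells and 0.282% and 0.398% of the oviduct cells.

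**Figure D1:**
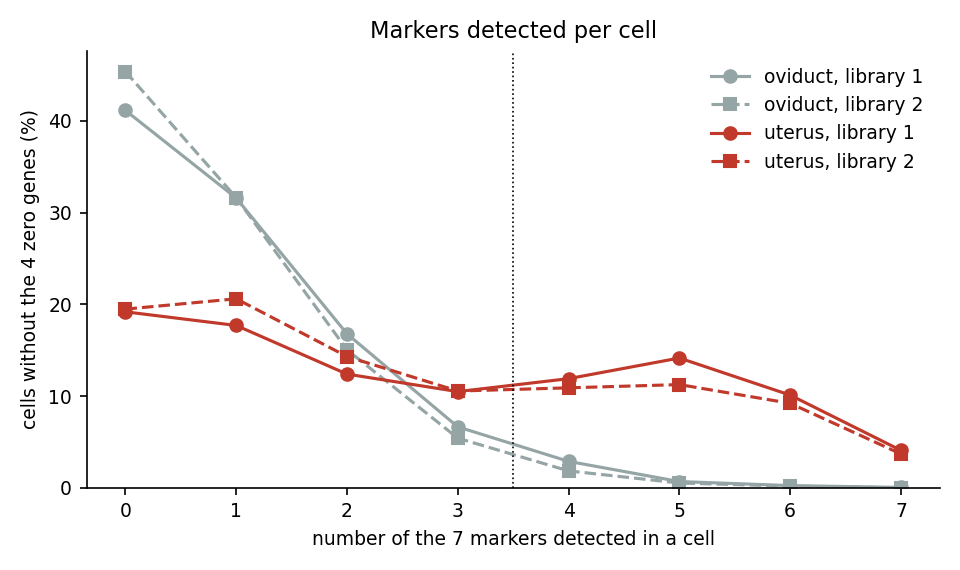
Share of cells without UMIs of the 4 excluded genes (y axis, %) by the number of the 7 markers detected (x axis), one line per library. Both uterus libraries have a second maximum at 5 markers at this unequal depth (with cells thinned to 5000 UMIs they do not), while the oviduct libraries fall steadily; the dotted line marks the threshold of 4.

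The requirement of 0 UMIs of the 4 excluded genes removed many cells with the same marker pattern. Without it, 1533 and 1508 uterine cells had at least 4 markers, which is 37.8% and 33.5% of the filtered cells. Uterine cells with at least 2 UMIs of Myh11 (306 and 308 cells) had Robo2 at 94.5 and 93.2 CPM. Those of the Epcam class (82 and 123 cells) had Robo2 at 145 and 148 CPM and Pdgfra at 155 and 141 CPM. Krt8, an epithelial keratin, was in 28.0% and 26.8% of these cells. The rule does not exclude cells with Cspg4, a pericyte marker. Uterine cells of the Cspg4 class, which have none of the excluded genes or Ptprc (93 and 97 cells), had Robo2 at 107 and 110 CPM. Plac8 stood at 184 and 245 CPM in them.

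Robo2 stood at 251 and 231 CPM in the members and was detected in 92.2% and 92.2% of them. Tex15 stood at 253 and 206 CPM, Plac8 at 263 and 333 CPM and Col6a4 at 188 and 164 CPM, each in at least 80.9% of the members of either library. Prdm1 (92.7 and 82.2 CPM), Cnr1 (65.0 and 52.6 CPM) and Rxfp1 (53.7 and 47.8 CPM) were lower, and were detected in 68.7% and 66.8%, 50.7% and 48.7%, and 42.8% and 42.3% of the members. Of the members with exactly 4 markers, 81.1% and 83.2% had Robo2, but only 22.1% and 19.4% had Rxfp1. As a gauge of free RNA, uterine cells with at least 2 UMIs of Pecam1, which mark endothelium, had Robo2 in 8.82% and 7.84% of cells, at median depths of 17049.5 and 19643 UMIs against 15458 and 17066 in the members. Prdm1 was in 51.5% and 52.9% of these endothelial cells, and Plac8 in 60.7% and 43.8% of the 28 and 16 uterine cells with at least 2 UMIs of Ptprc.

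In other uterine stroma, chosen to have at most 1 marker, Robo2 stood at 16.7 and 7.51 CPM, Tex15 at 13.6 and 12.7 CPM and Plac8 at 24.5 and 42.8 CPM. Oviduct cells that passed the rule had Robo2 at 124 and 122 CPM, Tex15 at 99.9 and 115 CPM and Col6a4 at 131 and 146 CPM. Rxfp1 was at 6.20 and 14.5 CPM there and was detected in 6.96% and 13.3% of the cells, so the relaxin receptor had the lowest level of the 7 in both oviduct libraries. In other oviduct stroma Rxfp1 was at 0.281 and 0.175 CPM, against 8.93 and 9.82 CPM in other uterine stroma.

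**Figure D2:**
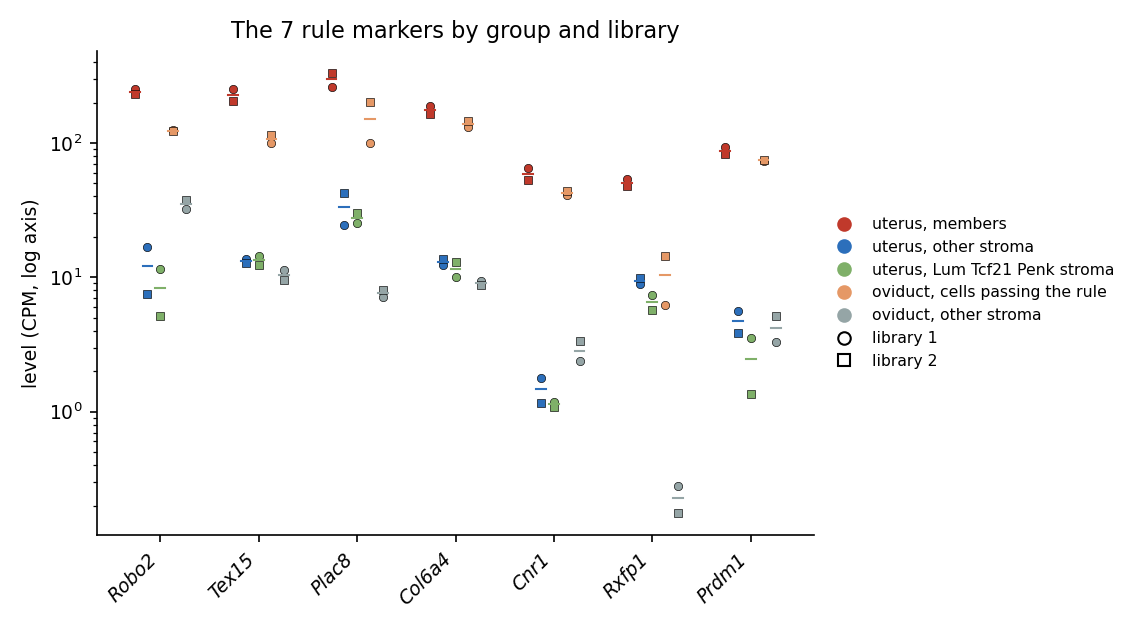
Level of each of the 7 markers (y axis, CPM, log scale) in 5 groups of cells; each point is a library and each bar the mean of 2. The rule itself sets the members above other stroma, and the markers had been chosen for the uterus. The higher level of every marker in uterine members than in passing oviduct cells is therefore a description. Prdm1 was at 92.7 and 82.2 against 73.7 and 74.8 CPM and Rxfp1 at 53.7 and 47.8 against 6.20 and 14.5 CPM.

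The rule itself makes marker levels rise with the number of markers detected, so the levels on either side of the threshold are a description. In uterus library 1, Robo2 was at 114 CPM in the 275 cells with 3 markers and at 191 CPM in the 312 cells with 4, and Tex15 at 101 and 199 CPM. In library 2 the values with 3 and with 4 markers were 108.5 and 179 CPM for Robo2 and 78.9 and 126 CPM for Tex15.

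Genes that the rule did not use varied along the same scale, and for Foxl2, Hand2 and Tcf21 most of the difference lay between 1 and 4 markers. The classes hold all filtered uterine cells without the 4 excluded genes. No condition was set on Pdgfra or Ptprc, so these cells are not limited to stroma. Foxl2, a transcription factor best known from the ovary, stood at 8.72 and 9.64 CPM in cells with 1 marker, at 66.9 and 63.8 CPM with 4 and at 73.3 and 71.2 CPM with 7. Hand2, the transcription factor of endometrial stroma that mediates progesterone signals, stood at 117 and 120 CPM, 252 and 234 CPM and 282 and 299 CPM at the same numbers. Tcf21, a mesenchymal transcription factor, went the other way, from 401 and 362 CPM with 1 marker to 122 and 133 CPM with 4 and 73.8 and 79.9 CPM with 7. Robo1 had no plateau and reached 159 and 163 CPM in cells with all 7. Mki67, a gene of cycling cells, was highest with 7 markers (243 and 224 CPM), where median depth was highest too (17937 and 19206 UMIs). These values are a description, because depth and the number of markers rise together.

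**Figure D3:**
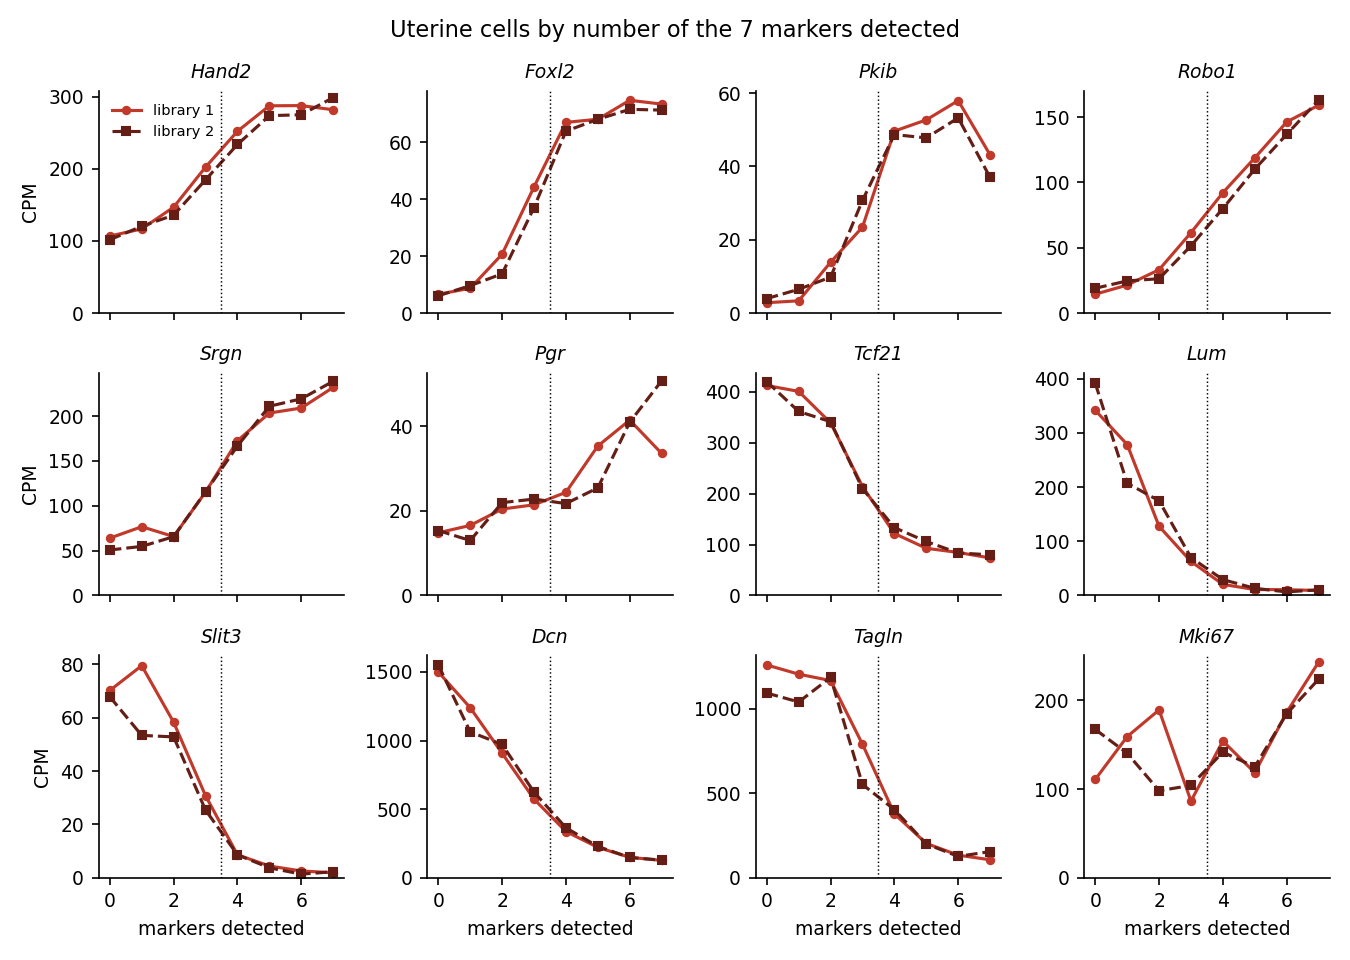
Level of 12 genes (y axes, CPM, each from 0) in uterine cells by the number of the 7 markers detected (x axis), for libraries 1 and 2. The cells had 0 UMIs of the 4 excluded genes and were not chosen by Pdgfra or Ptprc. Hand2, Foxl2, Pkib, Robo1 and Srgn are higher, and Tcf21, Lum, Slit3, Dcn and Tagln lower, with 4 or more markers than with 1 in both libraries; the dotted line marks the threshold.

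The members carried stromal RNA, at a lower matrix level than other stroma. Pdgfra, a receptor of mesenchymal cells, was detected in 86.8% and 89.4% of them, although the rule did not ask for it, and Ptprc, of blood cells, in 0.379% and 0.301%. Summed over 8 stroma markers, the level was 3065 and 2993 CPM in the members and 8951 and 8021 CPM in other uterine stroma. Smooth muscle markers without Myh11 summed to 1165 and 1347 CPM, led by Acta2 at 512 and 689 CPM, against 3201 and 2937 CPM. Of these 9 markers, 2 were called higher in the members and 6 lower (22.2% and 66.7%, against 15.9% and 19.8% of all genes). Against Lum Tcf21 Penk stroma 3 were higher and 6 lower, to be read against the shares of all genes given below for that comparison. Synpo2 was among the higher ones, at 95.8 and 95.2 against 45.4 and 22.9 CPM. Tagln was among the lower ones, at 218 and 229 against 1404 and 1236 CPM. Sums of epithelium markers were 48.4 and 65.0 CPM against 64.5 and 68.96 CPM, and Krt18 made up 41.2 and 55.0 CPM of the first. Pericyte markers summed to 73.4 and 63.9 CPM against 171 and 160 CPM. Of 6 of them tested, 0 were called higher and 5 lower (83.3%, against 19.8% of all genes). Blood endothelium markers summed to 15.9 and 15.8 CPM against 51.8 and 49.5 CPM, and immune markers to 6.82 and 9.23 CPM against 13.2 and 26.2 CPM. Erythroid markers summed to 529 and 801 CPM in the members and 1331 and 2815 CPM in other stroma, so haemoglobin RNA was present in both groups and higher in the comparison cells. Bounded by the marker list that allows the least, free RNA made up at most 3.94% and 6.4996% of the members' UMIs and at most 9.92% and 18.5% of those of other stroma. Other uterine stroma was also shallower, with a median of 11278 and 11592.5 UMIs per cell, and had 4.44% and 4.43% mitochondrial UMIs against 5.33% and 5.08% in the members. The part of free RNA, depth and mitochondrial RNA in the results below was not tested, beyond the settings given in the closing section.

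The members differed from other uterine stroma in many genes outside the rule. Of 13234 genes tested with edgeR, with the library as a block, 35.7% were called at an adjusted p under 0.05, 2100 higher (15.9%) and 2624 lower (19.8%) in the members. The number and its balance moved with the setting: DESeq2 called 613 higher and 1169 lower, sums of thinned cells gave 911 and 1431, and the fit without a filter on low counts gave 2480 and 2399. Without the library block the counts were 1270 higher and 1973 lower. Fits that left out the members' sum of 1 library had no block either, and had fewer calls in both directions than the blocked fit. The thinned sums kept the groups as chosen at full depth. The libraries of the 2 groups did not overlap for 61.3% of the genes. The rule had split the cells of the same libraries by their own counts, and the counts of gene groups below are to be read against 15.9% and 19.8%. With 2 pools, p-values measure only the spread between these libraries.

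Genes were named among those called that averaged 20 CPM or more and met the other conditions for naming. One condition was that the libraries of the 2 groups did not overlap. Those that rose most were Pkib, Map2, Foxl2, Srgn, Serpinb1a, Stra6, Robo1, Csmd1, Gap43 and Klhl32. Pkib, an inhibitor of protein kinase A, stood at 52.2 and 48.2 CPM in the members and at 0.893 and 3.85 CPM in other stroma. The log2 fold change was 4.37 ± 0.22 (SE, adjusted p = 4.14e-14). Foxl2 stood at 70.2 and 68.3 CPM against 6.92 and 6.94 CPM (log2 fold change 3.36 ± 0.13; adjusted p = 2.22e-16). Srgn, which encodes the proteoglycan serglycin, stood at 200.5 and 205 CPM against 16.7 and 28.9 CPM (3.18 ± 0.11; adjusted p = 4.79e-17). The choice of genes thus fixed that the groups' libraries did not overlap for them. Map2 (3.64) and Gap43 (2.50), both better known as proteins of the neuronal cytoskeleton and growth cone, rose with them. So did Stra6 (2.85), the membrane receptor for retinol bound to its carrier, and Serpinb1a (2.96), a protease inhibitor.

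Under the same conditions, those that fell most included Gata6, Col14a1, Tbx2, Zfpm2, Lum, Ogn, Unc5c, Slit3 and Spon2. Gata6, a GATA transcription factor, stood at 0.941 and 0.683 CPM in the members, that is 16 and 12 UMIs, and at 79.4 and 65.7 CPM in other stroma. The log2 fold change was -6.42 ± 0.16 (adjusted p = 1.13e-19). Zfpm2 (FOG2), a partner of GATA factors, fell by 4.78 on the log2 scale, and Tbx2, a T-box repressor, by 4.89. Lum, the matrix proteoglycan lumican, stood at 13.1 and 15.3 CPM against 402 and 378 CPM (log2 fold change -4.73 ± 0.08; adjusted p = 1.51e-22). Ogn, a related small proteoglycan, fell by 4.68 and Col14a1, a fibril-associated collagen, by 5.31. The 10 genes named as rising most and these 9 were all called again under each of the 15 other settings in which they could be tested.

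**Figure D4:**
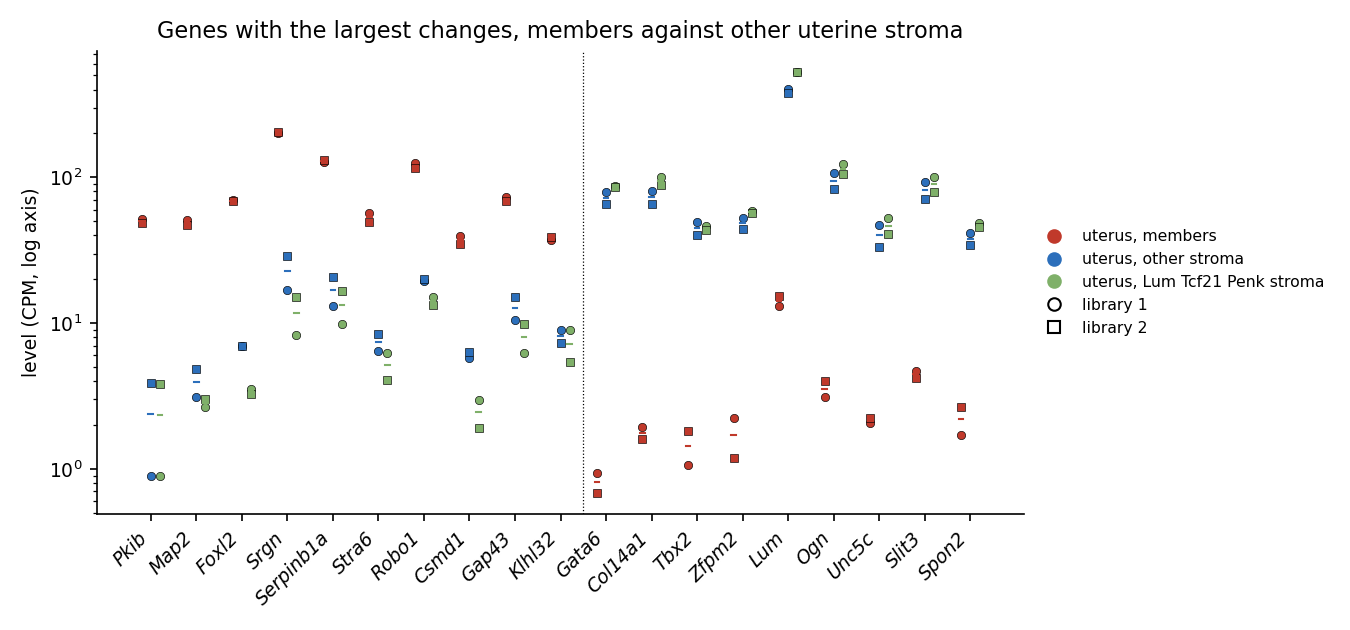
Level (y axis, CPM, log scale) of the 10 genes averaging 20 CPM or more that rose most (left of the dotted line) and of 9 that were among those that fell most (right) in members against other uterine stroma; each point is a library, and bars are means of 2. Genes were named only where the libraries of members and other stroma did not overlap, so that separation follows from the choice. Gata6, for example, stood at 0.941 and 0.683 CPM in members against 79.4 and 65.7 CPM in other stroma.

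Robo1 was high in the members and the Slit ligands low. Robo1, the closest relative of the rule marker Robo2, stood at 124 and 116 CPM in the members and 19.4 and 20.03 CPM in other stroma (log2 fold change 2.65 ± 0.09; adjusted p = 6.16e-17). Slit3 stood at 4.70 and 4.21 CPM against 93.0 and 71.5 CPM (-4.15 ± 0.12; adjusted p = 7.25e-19) and Slit2 at 22.5 and 20.6 CPM against 90.6 and 88.8 CPM (-2.02 ± 0.09; adjusted p = 2.49e-15). Srgap1, which links Robo receptors to the cytoskeleton, fell by 3.90. Of the 6 Slit and Robo genes tested, 1 rose and 4 fell, with a median log2 fold change of -1.70 against 0.01 over all genes. The same counts were found under all 15 other settings. Among 38 other guidance genes, 7 rose and 21 fell. Sema3a, a secreted repellent, stood at 230 and 197 CPM against 90.6 and 89.4 CPM (1.28 ± 0.07) and the ephrin receptor gene Epha7 rose by 1.27. Unc5c, a netrin receptor gene, fell by 4.17 and Sema3d by 2.72.

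Most matrix genes fell. Of 68 matrix genes other than collagens, 3 rose and 54 fell, and the median log2 fold change was -1.10. Dcn, the proteoglycan decorin, stood at 220 and 230 CPM against 1674 and 1559 CPM (log2 fold change -2.80 ± 0.06; adjusted p = 9.01e-21). The 3 that rose were Vcan, Nid1 and Fn1. Vcan, the large proteoglycan versican, stood at 984 and 873 CPM against 416 and 315 CPM (1.40 ± 0.06), and Nid1, of basement membranes, rose by 0.76. Fn1 changed by 0.31 only, and its call was lost without the library block.

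Of 34 collagen genes tested, 9 rose and 19 fell. The fibrillar collagen gene Col1a2 stood at 344 and 315 CPM against 1967 and 1625 CPM (-2.40 ± 0.06) and Col12a1 fell by 3.75. Col6a6, a relative of the rule marker Col6a4 in the same collagen VI family, stood at 190 and 150 CPM against 53.3 and 36.4 CPM (1.97 ± 0.08; adjusted p = 5.15e-16). Col6a5, the other such relative, stood at 16.8 and 14.6 CPM against 7.59 and 8.86 CPM (0.96 ± 0.17; adjusted p = 0.000104), a call that DESeq2 did not make. Col7a1, of anchoring fibrils under epithelia, rose by 1.93.

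Of 55 transcription factor genes of stroma and duct, 11 rose and 31 fell. Hand2 stood at 278 and 266 CPM in the members and 115 and 120 CPM in other stroma (log2 fold change 1.25 ± 0.07; adjusted p = 1.82e-13), and Twist2, of mesenchyme, rose by 1.04. Tcf21 stood at 95.7 and 104 CPM against 486 and 446 CPM (-2.18 ± 0.06; adjusted p = 1.85e-18). Of 28 Hox genes, 10 rose and 14 fell. Hoxa10 rose by 0.68, Hoxa11 by 0.81 and Hoxd10 by 1.20, with Hoxa11 at 166 and 163 CPM against 105.5 and 87.7 CPM. Hoxc6 (-2.23), Hoxb5 (-2.06) and Hoxb6 (-1.73) fell, at levels of at most 14.1 CPM. Under DESeq2 the Hox count was 6 rising and 5 falling.

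Signalling genes moved in both directions. Of 48 Wnt genes, 16 rose and 18 fell, with a median of -0.03. Wnt16 stood at 24.9 and 24.8 CPM against 1.79 and 7.32 CPM (log2 fold change 2.43 ± 0.23; adjusted p = 9.35e-09). Rspo3, an R-spondin that strengthens Wnt signals, stood at 13.3 and 12.6 CPM against 192 and 178 CPM (-3.79 ± 0.08), and the secreted Wnt inhibitor Sfrp1 fell by 3.38. Wnt5a, which is needed for uterine glands, was at 209 and 193 CPM against 240 and 210 CPM and was not called (-0.12 ± 0.06; adjusted p = 0.136). Subtracting the largest amount of free RNA, or counting stroma with up to 3 markers as comparison cells, did give a call for it.

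Of 42 BMP and TGF-beta genes, 8 rose and 26 fell. Amhr2, the receptor of anti-Müllerian hormone, stood at 58.3 and 50.4 CPM against 13.8 and 13.5 CPM (log2 fold change 2.03 ± 0.12; adjusted p = 6.29e-13), and Bmp7 at 26.9 and 23.2 CPM against 5.58 and 4.82 CPM (2.31 ± 0.17). Id4, a target of BMP signals, fell by 2.93 and Inhba, an activin subunit, by 2.56. Of 15 Notch genes none rose and 11 fell, among them the effectors Hes1 (62.3 and 72.4 CPM against 226 and 285 CPM; -1.88 ± 0.07) and Heyl (-2.30). Hedgehog genes numbered 10, of which 5 fell and none rose. Gas1, a coreceptor, fell by 1.53 and Boc, another, by 3.24, while the target gene Gli1 (-1.36) was not called by DESeq2. Of 21 Fgf genes 1 rose and 8 fell, and Fgf2 fell by 1.35.

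Receptors of steroid hormones did not move as a group: of 20 genes of the steroid and nuclear receptor list, 5 rose and 10 fell. Pgr, the progesterone receptor, stood at 33.9 and 32.0 CPM against 16.7 and 14.1 CPM (log2 fold change 1.14 ± 0.12; adjusted p = 6.09e-08). Esr1, the main oestrogen receptor, was at 233 and 206 CPM against 224 and 177 CPM, so the groups overlapped. Its change of 0.18 ± 0.06 (adjusted p = 0.0282) was not called by DESeq2 or without the block. Of 17 retinoid genes, 4 rose and 8 fell. Beside Stra6, Crabp1, a binding protein for retinoic acid, rose by 0.66, and the retinoic acid receptor gene Rarb fell by 2.41. Aldh1a2, which makes retinoic acid, stood at 41.0 and 32.9 CPM against 59.1 and 55.5 CPM (-0.60 ± 0.09; adjusted p = 1.13e-05). It was not called in the fit without the members' sum of library 2, which also had no library block.

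Of 22 insulin-like growth factor and imprinted genes, 5 rose and 13 fell. Igf1 stood at 21.8 and 22.8 CPM against 237 and 186 CPM (log2 fold change -3.19 ± 0.08; adjusted p = 1.46e-19), and Igfbp5 fell by 2.04. Gatm, an enzyme of creatine synthesis that is imprinted in placenta, rose by 2.10. Of 22 chemokine and cytokine genes, 2 rose and 15 fell, with Cxcl13 at 1.53 and 0.171 CPM against 35.0 and 28.3 CPM (-5.19 ± 0.27) and Il33 lower by 4.73.

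Genes listed as relatives and partners of the other rule markers changed in both directions. Of 21 genes tested for relaxin signalling and other G protein-coupled receptors, 4 rose and 11 fell, that is 71.4% called against 35.7% of all genes. No UMI of Cnr2, the other cannabinoid receptor gene, was counted in the members, which allows up to 0.176 and 0.171 CPM (3 counts per library). Of 7 endocannabinoid genes tested, 1 rose and 2 fell, and DESeq2 called neither Abhd6 (0.63) nor Mgll (-1.28), both of which break down endocannabinoids. Rxfp2, the other relaxin family receptor of this type, stood at 3.82 and 3.53 CPM against 7.59 and 5.97 CPM (-0.83 ± 0.25; adjusted p = 0.0124) and was not called by DESeq2. Germ line genes, taken because Tex15 is one, were mostly too low to test: 4 of 23 were tested, of which 2 rose and none fell. Taf7l stood at 2.94 and 2.79 CPM against 0.223 and 0.385 CPM (3.20 ± 0.58; adjusted p = 0.000103). Tex14 was at 1.06 and 0.911 CPM against 0 and 0.193 CPM, with 1 UMI in all in other stroma.

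Genes of DNA replication were higher in the members, and genes of mitosis gave no stable direction. Of 36 S phase genes, 30 rose and none fell, and the median log2 fold change was 0.48. Uhrf1, which copies DNA methylation, stood at 64.3 and 59.1 CPM against 32.1 and 29.9 CPM (1.04 ± 0.09; adjusted p = 1.92e-09). The count was 16 with cells thinned to 5000 UMIs, 25 with cells of at least 10000 UMIs in both groups and 13 under DESeq2. Of 48 G2M genes, 2 rose and 11 fell. Which of the 2 directions had more calls changed with the sum of other stroma that was left out. Those fits also had no library block and kept 1 sum of other stroma, so the part of a single library was not tested. Mki67 was at 162 and 159 CPM against 156 and 177 CPM (-0.01 ± 0.07; adjusted p = 0.925).

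Of 28 immediate early and stress genes, 2 rose and 24 fell, with a median of -1.25. Gadd45b stood at 19.6 and 45.04 CPM in the members and 142 and 406 CPM in other stroma (log2 fold change -3.01 ± 0.08; adjusted p = 2.14e-19). Both groups were higher in library 2. Genes of a list were named for their change only where the groups' libraries did not overlap.

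Against Lum Tcf21 Penk stroma alone, a subset of the other stroma that shares the members' sums with the comparison above, 35.7% of 13127 genes were called, 2062 higher (15.7%) and 2620 lower (20%) in the members (613 and 1160 with DESeq2), and the libraries did not overlap for 62.1%. Foxl2 was at 3.56 and 3.27 CPM in Lum Tcf21 Penk stroma (log2 fold change 4.40 ± 0.17; adjusted p = 4.90e-19) and Srgn at 8.30 and 14.99 CPM (4.17 ± 0.12). Gata6 was at 86.9 and 86.4 CPM (-6.65 ± 0.17; adjusted p = 1.87e-23) and Cxcl13 at 46.5 and 39.8 CPM (-5.61 ± 0.26). Robo1 was at 15.1 and 13.4 CPM (3.15 ± 0.11) and Slit2 at 105 and 105 CPM (-2.22 ± 0.09). Of the 6 Slit and Robo genes, again 1 rose and 4 fell. Members kept Tcf21 in 61.2% and 67.2% and Penk in 46.9% and 47.5% of their cells but Lum in 6.82% and 9.33%, so among the genes that name that stroma Lum was the one detected in the fewest members.

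The oviduct libraries are separate samples, but their cells were picked by the same marker counts. The 158 and 83 oviduct cells that passed the rule were compared with 2046 and 1539 other oviduct stroma cells, a test added after the uterine results were known. Of 13231 genes, 16.2% were called, 1013 higher (7.66%) and 1132 lower (8.56%). The 9 genes named above among those that fell most in the uterus all fell here too, and 9 of the 10 that rose most rose. Srgn stood at 160 and 128 CPM in passing cells and 17.8 and 12.8 CPM in other oviduct stroma (log2 fold change 3.15 ± 0.11; adjusted p = 4.89e-16). Gata6 stood at 6.55 and 2.29 CPM against 87.4 and 85.4 CPM (-4.14 ± 0.20; adjusted p = 2.28e-13). Klhl32, at 4.82 and 6.10 CPM against 2.49 and 3.39 CPM, was not called (adjusted p = 0.174).

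The sizes of the changes in the organs were not compared by a test, and the genes above had been picked for their large change in the uterus. Of the genes named whatever their change, some had smaller fold changes in the oviduct (Hand2) and some larger (Hoxa10, Hoxa11 and Aldh1a2). Foxl2 stood at 149 and 176 CPM in passing cells and at 92.3 and 107 CPM in other oviduct stroma (log2 fold change 0.63 ± 0.08; adjusted p = 2.60e-06), so that other stroma of the oviduct already had more than members of the uterus. Unc5c stood at 56.2 and 53.4 CPM against 70.6 and 75.1 CPM (-0.47 ± 0.11). Hand2 was at 98.5 and 120 CPM against 91.6 and 90.1 CPM and was not called (0.16 ± 0.10; adjusted p = 0.326). Robo1 (1.36), Col6a6 (1.52) and Slit2 (-1.07) were called in the same direction as in the uterus. Hoxa11, a gene of the uterine part of the duct, stood at 13.8 and 17.6 CPM against 2.89 and 2.87 CPM (2.32 ± 0.29; adjusted p = 1.82e-06), and Hoxa10 rose by 1.77.

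Passing oviduct cells were also deeper and held more RNA of cycling cells. Their median depth was 15239 and 14813 UMIs against 11862 and 10715 in other oviduct stroma, 34 of 36 S phase genes and 46 of 48 G2M genes were higher and none lower, and Mki67 stood at 229 and 424 CPM against 116 and 132 CPM. Scrublet scores marked 10.1% and 2.41% of the passing cells as probable doublets, against 6.16% and 4.74% of other oviduct stroma. What part depth, cycling or doublets had in these differences was not tested. With counts thinned to 5000 UMIs per cell, 26 of the 28 named genes that were called here and could still be tested were called again. The passing cells were still those chosen at full depth, so the part of depth in that choice was not tested. DESeq2 called 611 genes in place of 2145.

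**Figure D5:**
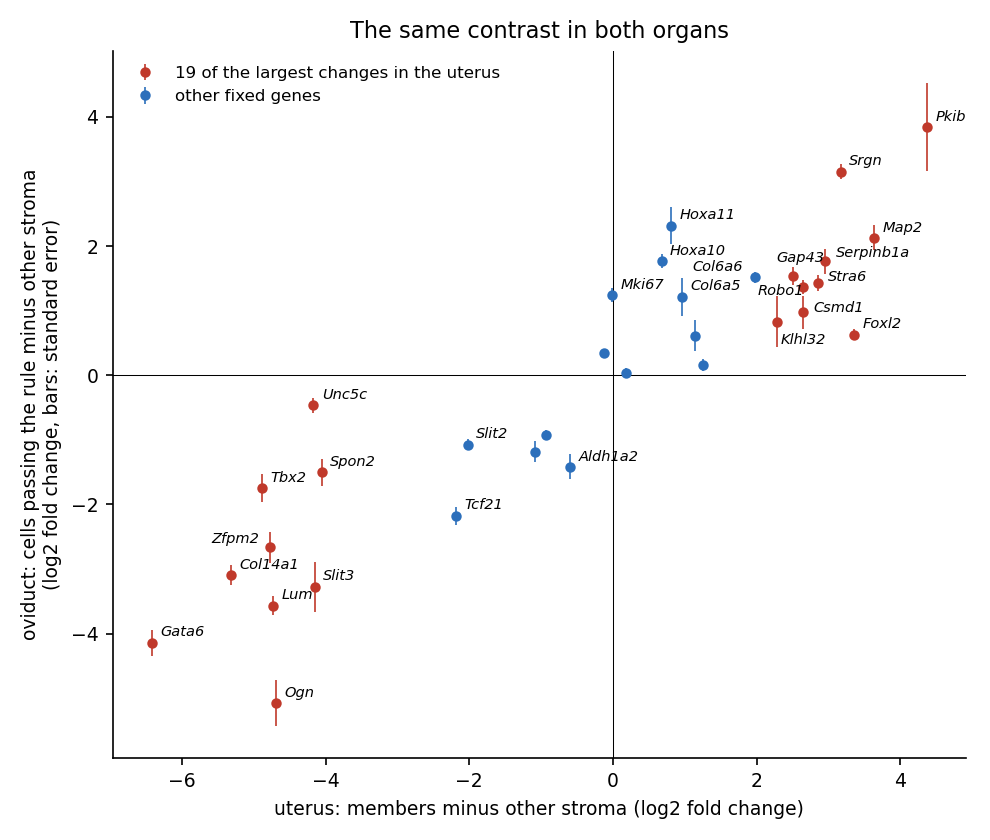
Log2 fold change of members against other stroma in the uterus (x axis) and of cells passing the same rule against other stroma in the oviduct (y axis, bars are standard errors), for 19 of the largest uterine changes (red) and other fixed genes (blue). All 19 red genes have the same sign in both organs, with Foxl2 (3.36 and 0.63) and Unc5c (-4.17 and -0.47) closest to 0 in the oviduct relative to the uterus.

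Cells chosen by the same rule still differed between the organs. Of 13006 genes, 27.1% were called, 1542 higher (11.9%) and 1978 lower (15.2%) in the uterus. The libraries did not overlap for 64.2% of the genes. Without the filter on low counts 274 were higher and 457 lower, and DESeq2 called 673 and 1143. Pkib stood at 3.10 and 4.58 CPM in the oviduct cells, against 52.2 and 48.2 CPM in the uterine members (log2 fold change 3.93 ± 0.24; adjusted p = 1.21e-11). Hoxa11 (3.57 ± 0.15; adjusted p = 2.90e-14) and Hoxd11 (396 and 367 against 18.6 and 48.1 CPM; 3.84 ± 0.20) were higher in the uterine cells, as was Prlr, the prolactin receptor, at 51.9 and 50.0 against 6.20 and 6.87 CPM (3.11 ± 0.20). Ackr3, a scavenging chemokine receptor, was higher by 3.67. Of 29 Hox genes 11 were higher and 14 lower, and those lower included Hoxa7 (-4.93) and Hoxc8 (3.53 and 3.47 against 111 and 122 CPM; -4.91 ± 0.15).

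Among genes lower in the uterine members, Aldh1a1, which makes retinoic acid, had 1 UMI in the uterine sums and 498 in those of the oviduct, a ratio of 4086 with a 95% counting interval from 730 to 161721. Fst, the activin antagonist follistatin, stood at 0.0588 and 0.399 CPM against 120 and 144 CPM (log2 fold change -8.93 ± 0.25; adjusted p = 3.46e-17). Nr2f1, an orphan nuclear receptor, stood at 3.70 and 4.73 CPM against 143 and 102 CPM (-4.77 ± 0.17). Wnt16, which rose in uterine members over their neighbours, stood at 24.9 and 24.8 CPM against 642 and 500 CPM in the oviduct cells (-4.41 ± 0.13; adjusted p = 3.46e-17). Fibrillar matrix was lower as well: Dcn stood at 220 and 230 CPM against 1541 and 1157 CPM, Col1a1 had a log2 fold change of -1.69, and 38 of 66 matrix genes and 22 of 33 collagens were lower, against 10 and 1 higher.

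The Slit and Robo genes and the transcription factors of the members were mixed in this comparison. Robo1 was higher by 0.60 ± 0.11 in the uterine cells, and Slit2 was lower (22.5 and 20.6 against 126 and 104.5 CPM; log2 fold change -2.32 ± 0.13). Slit3 was low in both, at 4.70 and 4.21 and at 2.76 and 0 CPM, and was not called without a block (adjusted p = 0.0594). In the fit of Slit3, uterine against oviduct cells passing the marker rule, with the replicate number as a block, it was called (log2 fold change 1.42 ± 0.52; adjusted p = 0.0273). The labels do not say that libraries of the same number came from the same pool. Hand2 was higher by 1.47 ± 0.11, Tcf21 by 2.52 ± 0.15 and Pgr by 1.18 ± 0.17. Col6a6 (-0.14 ± 0.11; adjusted p = 0.375) and Col6a5 (0.32 ± 0.21; adjusted p = 0.286) were not called. Rxfp2 had 127 UMIs in the uterine sums and 0 in those of the oviduct, and the 95% counting interval of the ratio per total UMIs started at 4.14. Of 28 immediate early and stress genes, 21 were lower and 5 higher in the uterine cells, with Atf3 at 8.88 and 18.0 against 182 and 175 CPM. Erythroid markers were higher in the uterine cells, 5 of 5, and summed to 529 and 801 against 29.6 and 48.1 CPM. Free RNA made up at most 3.94% and 6.4996% of the uterine and 0.448% and 0.834% of the oviduct sums. Of 48 G2M genes 35 were lower in the uterine cells and none higher, with Mki67 at 162 and 159 against 229 and 424 CPM. The part of free RNA and of cycling cells in the organ difference was not tested.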

How the data were processed

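Single-cell libraries (10x Chromium 3' v3.1) of oviduct and uterus were deposited as filtered UMI count matrices, made by the authors with Cell Ranger 6.0.1 per the file headers; the raw matrices name Cell Ranger 4. The submitters' processing notes name mm10, Cell Ranger and Seurat 4.2.3. The annotation used for counting is not given in the sources used here. UMI counts were summed per library and group and tested with edgeR 4.0.16 (quasi-likelihood F-test, TMM, filterByExpr, Benjamini-Hochberg over all genes tested, threshold 0.05) in R 4.3.3, with DESeq2 1.42.0 as an alternative. Uterine comparisons and the oviduct comparison had the library as a block; the comparison between organs had none. The rule's own genes, and those that define a comparison group, were not tested. Cells were handled with Python 3.11.15 and scanpy 1.11.5; doublets were scored with Scrublet at a rate of 0.8% per 1000 barcodes and kept except in an alternative. Any 2 libraries shared 8 to 15 called barcodes, and the uterus libraries shared 0 members.

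The members, markers and gene lists were chosen with earlier results of these data known. Named genes were the 10 largest changes per direction against other stroma (5 in the 2 other planned comparisons) among called genes that averaged 20 CPM or more, without overlap between groups and free RNA under a bound of 25%, up to 3 called genes per direction of each list, and a fixed set of 20. Some genes that the rule named are not reported here. Krt8, outside these, was chosen after its values were seen. The oviduct comparison, the subtraction of free RNA and the share without the 4 excluded genes were added after seeing the data. Counts were simulated from the model that edgeR had fitted to these data, with 200 changed genes in each of 5 sets. For the 13234 genes of members against other stroma, 80.4% of 2-fold and 95.8% of 4-fold changes were recovered, and 4.03% of calls were false. In the data 35.7% of these genes were called, between groups split by their own counts. The simulated rates therefore do not give the false share of the calls above. In the same test, 72.4% of 2-fold changes were recovered with 5.65% of calls false for the 13127 genes against Lum Tcf21 Penk stroma, 68.4% with 7.72% for the 13006 genes between organs, and 67.8% with 4.36% for the 13231 genes in the oviduct.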

Additional observations from a re-analysis of the deposited data

Results flagged for a closer look

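Wnt5a differed in sign between the organs. In the uterus the log2 fold change of members against other stroma was -0.12 (209 and 193 against 240 and 210 CPM), lower in both libraries. In the oviduct that of cells passing the marker rule against other stroma was 0.34 ± 0.06 (354 and 343 against 260 and 262 CPM), higher in both. The uterine change was not called by edgeR (adjusted p = 0.136), and the difference between the organs was not tested.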

How the results depend on the processing

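The share of members, 24.1% as a mean of 2 libraries, was 16.8% with at least 5 markers, 30.8% with at least 3, 13.8% with cells thinned to 5000 UMIs and 35.6% without the rule on the 4 excluded genes, and from 22.1% to 26.0% with 1 library left out. Of 4724 genes called between members and other stroma, DESeq2 called 1782 and the thinned sums 2342; leaving out 1 library gave 2048 to 3329, with 2048 without members library 1 and 2143 without members library 2. Against Lum Tcf21 Penk stroma the counts were 4682, 1773 (DESeq2), 2329 (thinned) and 2233 to 3435 (1 library left out). Between the organs they were 3520, 1816 (DESeq2), 1816 (thinned), 731 (no filter on low counts) and 2164 to 3529 (1 library left out). In the oviduct they were 2145, 611 (DESeq2), 931 (thinned), 1318 (no replicate block) and 861 to 1590 (1 library left out). In these counts of called genes, 1 library left out means that 1 sum was dropped from the fit. Within an organ, the other sum of that library stayed in the fit, and the library block was dropped too. The part of the lost sum and of the lost block cannot be told apart. The cause of these differences was not tested. A replicate block on the library number, which the labels do not tie to a pool, gave 3413 calls between the organs and made Slit3 a call; deviations of same-numbered libraries correlated at 0.0732 over 13008 genes. Without a block, 3243 genes were called against other stroma and 3363 against Lum Tcf21 Penk stroma. Of the named genes called against other stroma, DESeq2 did not call 31 of 133, and none changed sign; it did not call 37 of 131 against Lum Tcf21 Penk stroma and 19 of 118 between the organs, where the fit without a filter on low counts lost 59 of 121. A sign did change for Krt18, members against Lum Tcf21 Penk stroma, with up to 3 markers in the comparison cells (-0.023), and for Nek2, uterine against oviduct cells passing the marker rule, in thinned sums (0.079); neither was called by edgeR there.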
